A study of Mus musculus with 34 samples.

Results

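Chemokine ligands are small secreted or membrane-held proteins that draw leukocytes along a gradient. The group described here holds every gene that the array files name with the Ccl, Cxcl, Cx3cl or Xcl stem and a number, 37 genes on 45 probes. Of these, 34 passed the filter, which asked for signal well above background from the pair of arrays of some group, and were tested among 19413 genes in all. Ccl20 and Ccl22 were well above background on 0 arrays and Cxcl15 on 1 array (iPSC2-CM D9 replicate 2), so these 3 ligands have no further values. RNA came from 17 groups of mouse heart cells with 2 single-colour Agilent arrays each, 34 arrays in all, and every group was of CD1 strain and carried the aMHC-GFP reporter, in which the promoter of a cardiomyocyte myosin heavy chain gene drives GFP. The endpoint groups were induced cardiomyocytes of 4 weeks (iCM), cardiomyocytes differentiated from line 1 of induced pluripotent stem cells on day 13 (iPSC1-CM D13) and from line 2 on days 9 and 29 (iPSC2-CM D9 and D29), neonatal cardiomyocytes (neoCM) and neonatal cardiac fibroblasts (neoCF), both fresh from pups at postnatal day 1.5. The labels give the iCM as derived from neoCF. The culture course followed cardiac fibroblasts infected with a retrovirus that carries a polycistronic Mef2c, Gata4 and Tbx5 transgene (MGT), or with LacZ, on days 3, 5, 7, 10 and 14, beside the fibroblasts of day 0 (CF D0). The stem cell lines had been made from cardiac fibroblasts with Oct4, Sox2, Klf4 and cMyc, each stem cell group is 1 line, and contractile iCM and stem cell derivatives grew in StemPro-34 medium with GlutaMAX, ascorbic acid, VEGF, bFGF and FGF10. The labels name no sort, so each array reads whatever cells its culture or isolate held, and fewer cells of a type and less RNA per cell cannot be told apart.

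Most chemokines act through G protein-coupled receptors on leukocytes and are grouped by the spacing of their first cysteines into CC, CXC, CX3C and XC families. Cxcl1, Cxcl2, Cxcl3 and Cxcl5 draw neutrophils through Cxcr2, Cxcl9, Cxcl10 and Cxcl11 draw activated T cells through Cxcr3 after interferon, and Ccl2, Ccl7, Ccl8 and Ccl12 draw monocytes through Ccr2 and related receptors. Heart fibroblasts and resident macrophages are known sources of these inflammatory ligands after injury, while Cxcl12, Cxcl13, Ccl19 and the Ccl21 genes guide cells in resting tissue.

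Promoter stretches of 4 inflammatory ligands of chromosome 5, whose values the results below turn on, are shown because they share short motifs with the consensus of NF-κB, the transcription factor of many cytokine genes, or with the interferon response element. All are RefSeq sequence of build GRCm38.p6, 5′ to 3′ on the gene's strand, with motif matches in capitals. Of the 37 ligands, 26 had a promoter window of 250 bases before to 50 after the start.
Cxcl1 (chr5:90891117-90891196, plus strand): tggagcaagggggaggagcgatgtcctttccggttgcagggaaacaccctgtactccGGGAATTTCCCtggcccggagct
Cxcl2 (chr5:90903745-90903824, plus strand): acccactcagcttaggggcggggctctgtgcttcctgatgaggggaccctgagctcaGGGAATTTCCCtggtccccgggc
Cxcl3 (chr5:90785971-90786050, plus strand): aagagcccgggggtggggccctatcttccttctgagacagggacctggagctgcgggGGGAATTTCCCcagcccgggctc
Cxcl10 (chr5:92348971-92349114, minus strand): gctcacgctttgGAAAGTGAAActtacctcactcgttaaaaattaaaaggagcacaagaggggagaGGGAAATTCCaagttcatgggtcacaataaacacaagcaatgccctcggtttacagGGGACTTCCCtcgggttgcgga
Both strands were searched for the NF-κB consensus and for the interferon response core, which is GAAA, any 2 bases and GAAA again. Cxcl1, Cxcl2 and Cxcl3 hold 2 overlapping NF-κB matches that form the same 11 capitals, and Cxcl10 holds 1 response core followed by 2 separate NF-κB matches. The NF-κB consensus was found in 7 of the 26 ligands (also in Ccl9, Ccl20 and Ccl27a) and in 5.14% of 27025 genes with a window. The response core was found in 3 of the 26 (Cxcl10, Ccl19 and Cxcl14) and in 3.99% of genes. A match describes the letters of the window and says nothing of binding.

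Probe stretches are shown for 3 ligands whose values may not be their own. The coordinates are those of the 60-base probe in build mm9 as the array files give them.
Ccl21a (chr4:42232117-42232176, plus strand, bases 27 to 56): atacctaactgaataaaaaGgtgatccagc
Ccl21b (chrUn_random:739167-739226, minus strand, bases 31 to 60): atacctaactgaataaaaaAgtgatccagc
Cxcl11 (chr5:92788567-92788626, minus strand, bases 10 to 39): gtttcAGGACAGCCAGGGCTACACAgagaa
The Ccl21a and Ccl21b probes were identical at 54 of 56 aligned bases and differed by T2C and G46A (Ccl21a base, position along the Ccl21a probe from its 5′ end, Ccl21b base), the second of which is the capital. Transcripts of the Ccl21 copies may thus reach both probes. The capitals in Cxcl11 mark a 20-base word that 6 other probes also hold, so its signal may include other transcripts. That Cxcl11 probe lay between 6.82 and 9.20 on all 34 arrays, the narrowest span of group means of any tested ligand at 1.59.

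A level below is the log2 of the background-adjusted intensity minus the 75th percentile of that array, so levels compare groups for 1 gene and never 2 genes. A gene was called where limma gave a Benjamini-Hochberg adjusted p under 0.05 over all genes (19412 or 19413 in a comparison) and at least a 2-fold difference. Differences are given on the log2 scale with the SE of the fit, from 2 arrays a group. The labels do not say that the 2 arrays came from separate cultures or litters, so p-values measure only the spread between these samples. Between 28715 and 44881 of 59305 spots were well above background on an array, and 0 were saturated. Within a group, Pearson's r across genes was 0.976 or more, except for iPSC2-CM D29 (r = 0.928). There Ccl2 read 3.72 and -3.00, Ccl6 2.67 and -5.33, and Cxcl14 0.86 and -5.70, and this spread widens the SE of such ligands in every comparison, because 1 fit shares it. Counts without D29 in the fit are therefore given for the MGT comparisons and LacZ culture. Cell type markers matched the labels in part: the median of 10 cardiomyocyte markers was 8.37 and 8.67 in neoCM, 4.02 and 4.21 in iCM, 2.91 and 2.85 in MGT D14, -3.25 and -3.27 in LacZ D14, and 3.98 and 3.24 in neoCF, which thus also held cardiomyocyte RNA. The median of 16 macrophage markers was 2.69 and 2.29 in neoCF, so macrophage RNA was present in the fibroblast isolates as well.

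**Figure D1:**
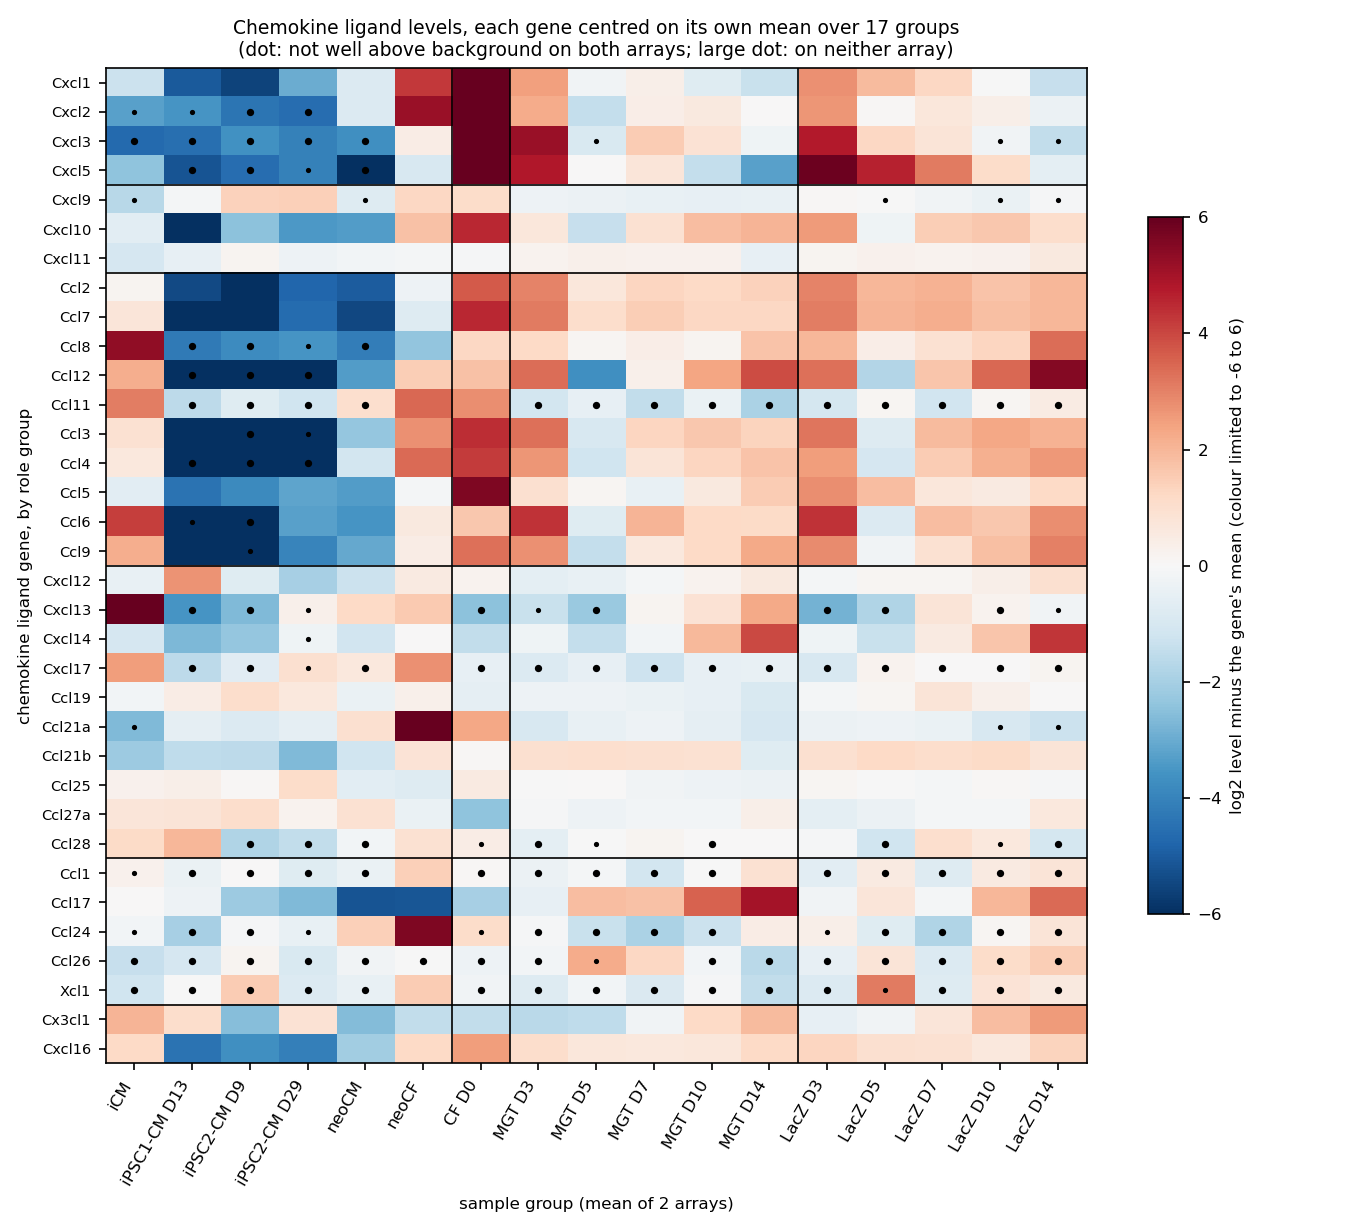
Each tested ligand (34, down the page by role) in each of the 17 groups (across). Colours give the group mean of 2 arrays minus the gene's own mean over groups, on the log2 scale of the colour bar. A dot marks a group where not both arrays were well above background, and the dot is larger where neither was. The neutrophil ligands, the monocyte ligands and Cxcl10 lie above their own mean in CF D0 and below it in the stem cell derivatives. Cxcl9 and Cxcl11 do not share this pattern. Cxcl9 is highest in iPSC2-CM D29 (-2.57) and D9 (-2.61) on the probe used, and Cxcl11 lies near its mean in CF D0 (-0.06). Cxcl13 and Ccl8 are highest in iCM.

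CF D0 had the highest mean for 12 of the 34 ligands, neoCF for 5, LacZ D14 for 4, and iCM for 2. The highest group was not counted over all genes, so these counts cannot show whether the ligands differ from genes at large. Cxcl5 had group means as far apart as 7.86 in CF D0 and -7.49 in neoCM, where it was not well above background. Ccl6, Cxcl3 and Cxcl13 also had wide ranges, each with a lowest group at background, so the size and order of these spans depend on the background level. Ccl25, a thymus and gut ligand, spanned 1.91. Ccl19, a lymph node homing ligand, spanned 1.96 on its brightest probe, while means on another of its probes lay between -4.18 in MGT D5 and 0.17 in iPSC2-CM D9. Several ligands were close to background nearly everywhere. Ccl26, and Xcl1, a ligand of cross-presenting dendritic cells, had both arrays well above background in 1 group each.

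From day 5 on, limma called the neutrophil ligand Cxcl5 lower in MGT-infected than in LacZ cells, and Ccl17, a ligand of Ccr4 on T cells, higher. Cxcl5 read 3.77 and 4.02 in MGT cells on day 3, against 4.98 and 4.93 in LacZ cells. On day 5 the values were -0.63 and -1.15 with MGT and 3.70 and 3.69 with LacZ. Day 7 gave -0.61 and 0.23 with MGT and 2.10 and 2.26 with LacZ. On days 3, 5 and 7 every MGT array lay below every LacZ array of its day. The same held later, with -2.43 and -2.26 against 0.30 and 0.03 on day 10, and -4.17 and -4.16 against -1.24 and -1.77 on day 14. The log2 difference was -4.59 ± 0.47 on day 5 (24.1-fold lower, adjusted p = 6.7e-07), -2.37 ± 0.47 on day 7 (adjusted p = 0.0012), -2.51 ± 0.47 on day 10 (adjusted p = 0.00071) and -2.66 ± 0.47 on day 14 (adjusted p = 0.00033). Cxcl5 was called on these 4 days under every alternative processing tried.

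The other neutrophil ligands differed mainly on day 5, when all 4 tested were lower with MGT. Among all genes 3.47% were called lower and 4.83% higher on that day. Cxcl1 read 0.76 and 0.77 with MGT and 2.89 and 2.91 with LacZ on that day, a difference of -2.13 ± 0.36 (4.39-fold, adjusted p = 0.00029). Cxcl3 was -4.2 and -5.0 with MGT, 1 of these arrays being well above background, and -2.40 and -2.53 with LacZ (-2.13 ± 0.40, adjusted p = 0.0008). Cxcl2 was -4.09 and -4.38 with MGT and -2.75 and -2.71 with LacZ (-1.50 ± 0.35, adjusted p = 0.0049). None of the MGT and LacZ arrays of these ligands overlapped on day 5. On day 14 Cxcl3 was higher with MGT, at -3.90 and -3.97 against -4.34 and -6.01 in LacZ cells, where 1 array was well above background (1.24 ± 0.40, adjusted p = 0.03). That call rests on LacZ D14 replicate 2: without it the difference was 0.41 with adjusted p = 0.57. Of 10 granulocyte markers, 3 were lower in MGT cells on day 5 and 0 higher (0 also at an unadjusted p under 0.05), with S100a9, Ltf and Retnlg at background in both groups. S100a8 was not called and lay the other way, at -3.74 and -4.27 with MGT against -4.80 and -5.31 with LacZ, where neither array was well above background. The median of the 10 markers was -5.49 and -6.06 with MGT and -4.09 and -3.53 with LacZ. Their part in the result was not tested.

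Among the interferon-inducible ligands, Cxcl10 was lower with MGT on days 3 and 5 and no longer on days 7 to 14. Cxcl10 read 2.49 and 2.26 with MGT and 4.25 and 4.32 with LacZ on day 3 (-1.91 ± 0.31, 3.75-fold, adjusted p = 0.00028). On day 5 it read 0.70 and -0.04 with MGT and 1.47 and 1.43 with LacZ (-1.12 ± 0.31, adjusted p = 0.017). The day 10 arrays overlapped, with 3.92 and 3.18 in MGT cells and 3.48 and 3.20 in LacZ cells. As group means minus the gene's mean over groups, Cxcl10 was 0.91 with MGT and 1.46 with LacZ on day 7. On day 14 it was 2.06 with MGT and 1.06 with LacZ, thus higher with MGT but not called. At an unadjusted p under 0.05, 1 of the 3 interferon-inducible ligands was higher on day 14 and 1 lower. Other interferon response genes moved beside it: of 25, 5 were lower on day 3 and 13 on day 5 and 0 higher (0 also at an unadjusted p under 0.05). On days 7, 10 and 14 limma called 0 of the 25 in either direction. At an unadjusted p under 0.05, 11 were lower, 1 higher and 2 higher on these days. Among all genes 1.86% were called lower on day 3 and 3.47% on day 5. Cxcl11 was called lower on day 14 (-1.06 ± 0.28, adjusted p = 0.0098), on the probe that shares a word with others. Its second probe gave 2.89 and 2.89 with MGT against 2.34 and 3.57 with LacZ, which overlap.

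Ccl5, which draws T cells and monocytes and also follows interferon, was lower with MGT early. On day 3 it read 0.93 and 0.88 with MGT and 2.70 and 2.76 with LacZ (-1.83 ± 0.33, 3.55-fold, adjusted p = 0.00075). On day 5 it read 0.16 and -0.11 with MGT and 1.76 and 1.75 with LacZ (-1.73 ± 0.33, adjusted p = 0.00081). The difference on day 7 was -1.09 ± 0.33 (adjusted p = 0.028), a call lost without any 1 of the 4 arrays (adjusted p 0.061 to 0.22). On day 14 Ccl5 was 1.48 and 1.45 with MGT and 1.15 and 1.05 with LacZ and was not called.

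Ccl17 went the other way. It read 1.78 and 2.19 with MGT and 0.86 and 0.84 with LacZ on day 5, 1.94 and 1.87 against 0.03 and 0.04 on day 7, 3.75 and 3.57 against 2.31 and 1.95 on day 10, and 5.16 and 5.15 against 3.52 and 3.52 on day 14. All MGT arrays of days 5 to 14 lay above the LacZ arrays of their day. The difference was 1.13 ± 0.37 on day 5 (2.19-fold, adjusted p = 0.044), 1.87 ± 0.37 on day 7 (adjusted p = 0.0011), 1.53 ± 0.37 on day 10 (adjusted p = 0.0059) and 1.64 ± 0.37 on day 14 (adjusted p = 0.0027). The call on day 5 was lost without any 1 of its arrays (adjusted p 0.081 to 0.28), and that on day 10 without MGT D10 replicate 1 (adjusted p = 0.057) or LacZ D10 replicate 2 (adjusted p = 0.068). On days 7 and 14 it was called under every alternative tried.

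**Figure D2:**
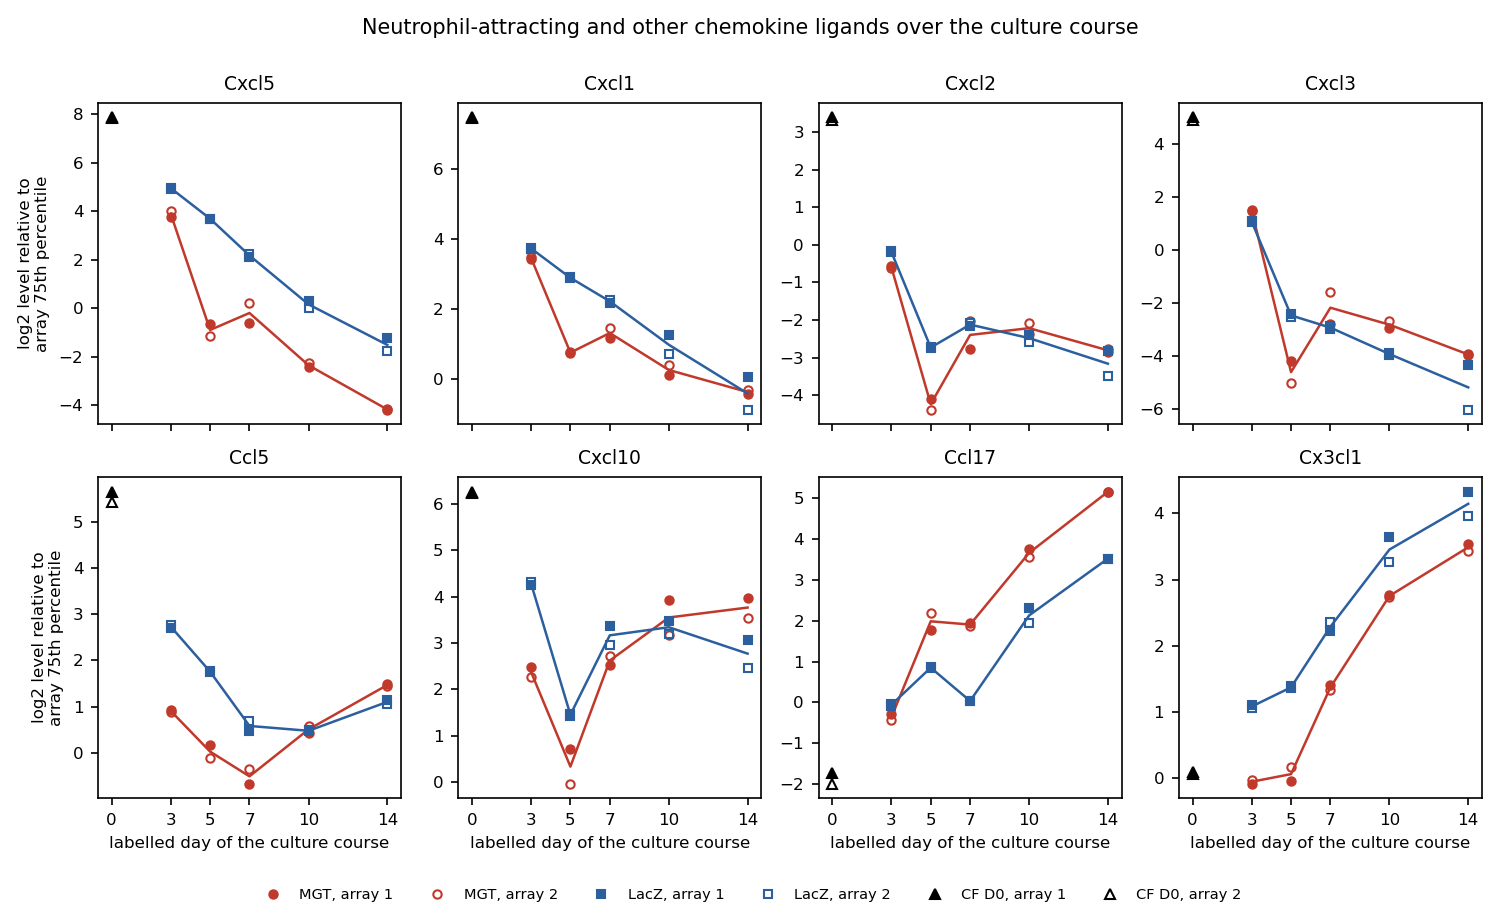
Levels of 8 ligands (log2, relative to the array's 75th percentile) by labelled day of culture, with 1 point an array and a line through the means: MGT (red circles), LacZ (blue squares) and CF D0 at day 0 (black triangles). MGT lies below LacZ for Cxcl5 on every day and above it for Ccl17 from day 5 on. Cxcl10 starts lower, meets LacZ by day 10 and has the higher mean with MGT on day 14.

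Some monocyte ligands were lower in MGT than in LacZ cells. Of 10 tested, limma called 1 lower on day 3, 2 on day 5, 1 on day 7, 0 on day 10 (3 lower at an unadjusted p under 0.05) and 3 on day 14, and 0 higher on any day (0 also at an unadjusted p under 0.05). Among all genes 1.86%, 3.47%, 3.51%, 3.31% and 7.07% were lower on these days. Ccl5 is among the 10 and accounts for the calls of days 3 and 7. Ccl12, a mouse monocyte ligand, read -3.70 and -4.70 with MGT and -2.17 and -2.40 with LacZ on day 5 (-1.92 ± 0.46, adjusted p = 0.0067). On day 14 it read 3.28 and 3.50 with MGT and 5.02 and 4.98 with LacZ (-1.61 ± 0.46, adjusted p = 0.015). Ccl8 read -0.47 and -0.52 with MGT and 1.00 and 1.26 with LacZ on day 14 (-1.63 ± 0.55, adjusted p = 0.04). The arrays did not overlap, but both day 14 calls were lost without any 1 of the 4 arrays (adjusted p 0.055 to 0.099 for Ccl12 and 0.078 to 0.18 for Ccl8), and that of Ccl12 on day 5 without MGT D5 replicate 2 (adjusted p = 0.13) or LacZ D5 replicate 1 (adjusted p = 0.06). The third call of day 14, Ccl11, and Ccl26 of the same day were background signals in both groups and have no fold. Limma called 0 of 16 macrophage markers in either direction on any of the 5 days, with at most 1 higher and 2 lower at an unadjusted p under 0.05.

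Ccl2, the main monocyte ligand of the list, was not called in any of the 5 comparisons. It read 8.09 and 8.14 with MGT and 8.10 and 8.14 with LacZ on day 3, and 5.86 and 5.74 against 7.14 and 7.15 on day 5. Without D29 in the fit, the day 5 difference of -1.35 ± 0.15 had adjusted p = 1.3e-06. Ccl7, its neighbour on chromosome 11, read 4.74 and 4.63 with MGT and 5.65 and 5.70 with LacZ on day 5.

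Of the membrane-bound ligands, Cx3cl1 (fractalkine, the ligand of Cx3cr1 on monocytes and macrophages) was lower with MGT on day 5, at -0.04 and 0.17 against 1.36 and 1.39 with LacZ (-1.31 ± 0.36, adjusted p = 0.016). Cxcl16, the ligand of Cxcr6, was called on none of the days. Ccl19 was lower with MGT on day 7, at -2.55 and -2.64 against -1.35 and -1.53 (-1.16 ± 0.20, adjusted p = 0.00036), although normexp with quantile scaling gave -0.92, under the 2-fold limit. Ccl21b was lower on day 14, at 4.19 and 4.43 with MGT and 5.30 and 6.31 with LacZ (-1.50 ± 0.31, adjusted p = 0.0014), and without LacZ D14 replicate 2 this was -0.99 (adjusted p = 0.052). Xcl1 on day 5 read -7.10 and -7.42 with MGT, at background, and -6.88 and -1.10 with LacZ, of which 1 array was well above it (called lower by limma, adjusted p = 0.031). It has no fold, and without LacZ D5 replicate 2 its log2 difference was -0.38.

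In all, 0 ligands were higher and 2 lower with MGT on day 3, 1 higher and 9 lower on day 5, 1 higher and 3 lower on day 7, 1 each way on day 10, and 2 higher and 7 lower on day 14. At an unadjusted p under 0.05, 1 was higher on day 3. Among all genes 3.19% were called higher and 1.86% lower on day 3, 4.83% and 3.47% on day 5, 5.25% and 3.51% on day 7, 5.3% and 3.31% on day 10, and 5.92% and 7.07% on day 14. The share of ligands called lower was 5.88% on day 3, 26.5% on day 5, 8.82% on day 7, 2.94% on day 10 and 20.6% on day 14. The 7 lower on day 14 include Ccl11 and Ccl26, at background in both groups. When 1 array was left out, 6 or 7 ligands were called on day 5, 6 of them without MGT D5 replicate 2, LacZ D5 replicate 1 or LacZ D5 replicate 2. On day 14 the count was 3 without LacZ D14 replicate 2, 5 without either MGT array and 9 without LacZ D14 replicate 1. Median log2 differences of the ligands lay between -0.10 and -0.52 on the 5 days, against -0.05 to -0.12 over all genes. Without D29 in the fit 4, 12, 6, 4 and 11 ligands were called on days 3, 5, 7, 10 and 14, among them Cxcl5 on day 3 (-1.06 ± 0.26, adjusted p = 0.0066). That fit also called more genes in all, with 812 higher and 696 lower on day 3 against 620 and 361 with every array, and 1335 and 1810 on day 14 against 1150 and 1372. Quantile scaling gave 4 ligands higher and 4 lower on day 14, where it called 1338 genes higher and 759 lower, and normexp with quantile scaling gave 1 higher and 2 lower on day 10, where it called 828 genes higher and 466 lower. MGT and LacZ shared a slide on days 3 to 10, but on day 14 they lay on different slides, so slide and virus cannot be told apart there. With quantile scaling the median of all genes was 0 on day 14, against -0.11 here, and it moved by more than 0.1 also in CF D0 against neoCF, stem cell derivatives against neoCF, and iCM against the derivatives and LacZ D14.

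The change of the MGT effect between days 3 and 10 was tested as an interaction term. Cxcl10 (2.11 ± 0.44, adjusted p = 0.0094) and Ccl5 (1.86 ± 0.46, adjusted p = 0.035) were called. Their day 10 values were 3.92 and 3.18 with MGT and 3.48 and 3.20 with LacZ for Cxcl10, and 0.43 and 0.58 against 0.49 and 0.46 for Ccl5. These 2 higher and 0 lower calls compare with 1.41% and 0.582% of all genes, and 3 ligands each way passed at an unadjusted p under 0.05. The Ccl5 call was lost without any 1 of the 8 arrays (adjusted p 0.075 to 0.13), and the Cxcl10 call without MGT D3 replicate 2 (adjusted p = 0.056) or MGT D10 replicate 1 (adjusted p = 0.075). Without D29 in the fit, Ccl17 was called too (1.84 ± 0.23, adjusted p = 3.1e-05), as was Cxcl5 in the other direction (-1.45 ± 0.37, adjusted p = 0.018).

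The neutrophil ligands also fell with time in culture. In LacZ cells of day 3 against CF D0, Cxcl5 read 4.98 and 4.93 against 7.85 and 7.87, and Cxcl1 read 3.73 and 3.75 against 7.46 and 7.48. Cxcl2 read -0.17 and -0.20 against 3.39 and 3.32, and Cxcl3 1.06 and 1.08 against 4.99 and 4.88. No array of either group overlapped, and all 4 ligands fell, by 3.86 ± 0.40 for Cxcl3 (14.5-fold, adjusted p = 5.2e-07), 3.73 ± 0.36 for Cxcl1, 3.54 ± 0.35 for Cxcl2 and 2.91 ± 0.47 for Cxcl5 (adjusted p = 8.6e-05). Ccl5 (-2.81 ± 0.33), Cxcl10 (-1.96 ± 0.31) and Ccl4, which draws monocytes (-1.70 ± 0.27), fell with them. In all 3 ligands were higher (Ccl17, Ccl27a and Ccl12) and 11 lower, against 9.22% and 6.3% of all genes. Ccl17 rose by 1.80 ± 0.37 (adjusted p = 0.00083), and the Ccl12 call was lost without CF D0 replicate 2 (adjusted p = 0.083) or either LacZ D3 array (adjusted p 0.066 and 0.067). Without D29 in the fit 18 ligands were called, among 2141 genes higher and 1472 lower in that fit. Of 25 genes of the NF-κB and cytokine response, 10 were lower and 0 higher (0 also at an unadjusted p under 0.05). The 2 groups differ in scan day as well as in culture, and these cannot be told apart.

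From day 3 on the same 4 ligands went on down in LacZ cells. The arrays of days 3 and 10 lay on different slides, so slide and culture time cannot be told apart. By day 10 Cxcl3 read -3.89 and -3.95, with 1 array well above background, against 1.06 and 1.08 on day 3 (-4.99 ± 0.40, 31.9-fold, adjusted p = 9.6e-08). Cxcl5 read 0.30 and 0.03 on day 10, against 4.98 and 4.93 on day 3 (-4.79 ± 0.47, adjusted p = 1.2e-06). Cxcl1 fell by 2.75 ± 0.36, Cxcl2 by 2.30 ± 0.35 and Ccl5 by 2.25 ± 0.33. Cx3cl1 and Ccl17 rose: Cx3cl1 read 3.65 and 3.26 on day 10, against 1.11 and 1.06 on day 3 (2.37 ± 0.36, 5.16-fold, adjusted p = 0.00012), and Ccl17 rose by 2.19 ± 0.37 (adjusted p = 0.00033). The comparison had 3 ligands higher, 1 of them Ccl11 at background in both groups, and 5 lower, against 3.86% and 3.94% of all genes, and 14 were called without D29 in the fit, among 1239 genes higher and 1134 lower. Of the 10 granulocyte markers, 5 were lower and 1 higher, and 4 of the 16 macrophage markers were higher and 0 lower (1 at an unadjusted p under 0.05). Their part in these results was not tested.

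The MGT course gave the same 4 falls in its own arrays, which it does not share with the LacZ course. On day 14 against day 3, Cxcl5 fell by 8.06 ± 0.47 (267-fold, adjusted p = 8.1e-10), Cxcl3 by 5.42 ± 0.40, Cxcl1 by 3.83 ± 0.36 and Cxcl2 by 2.22 ± 0.35. Ccl17 rose by 5.52 ± 0.37 (45.8-fold, adjusted p = 3.9e-09), with 5.16 and 5.15 on day 14 against -0.29 and -0.44 on day 3. Cx3cl1 rose by 3.53 ± 0.36 (adjusted p = 7.7e-07). Cxcl14, a tissue ligand of skin and other epithelia, read 1.49 and 2.06 on day 14 against -2.41 and -2.51 on day 3 (4.23 ± 1.10, adjusted p = 0.0076), a call lost without MGT D14 replicate 2 (adjusted p = 0.062). Cxcl13, the B cell ligand of Cxcr5, rose by 3.61 ± 1.21 (adjusted p = 0.033), a call lost without any 1 of the 4 arrays (adjusted p 0.062 to 0.21). In all 5 ligands were higher, Cxcl10 (1.39) among them, and 6 lower, with Ccl3 (-2.01) and Ccl21b (-1.70), against 7.01% and 5.05% of all genes. Of the macrophage markers 7 of 16 were higher and 0 lower (0 also at an unadjusted p under 0.05), and of the granulocyte markers 8 of 10 were lower and 0 higher (0 also at an unadjusted p under 0.05). Their part in these results was not tested. The 2 days differ in slide and scan day.

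**Figure D3:**
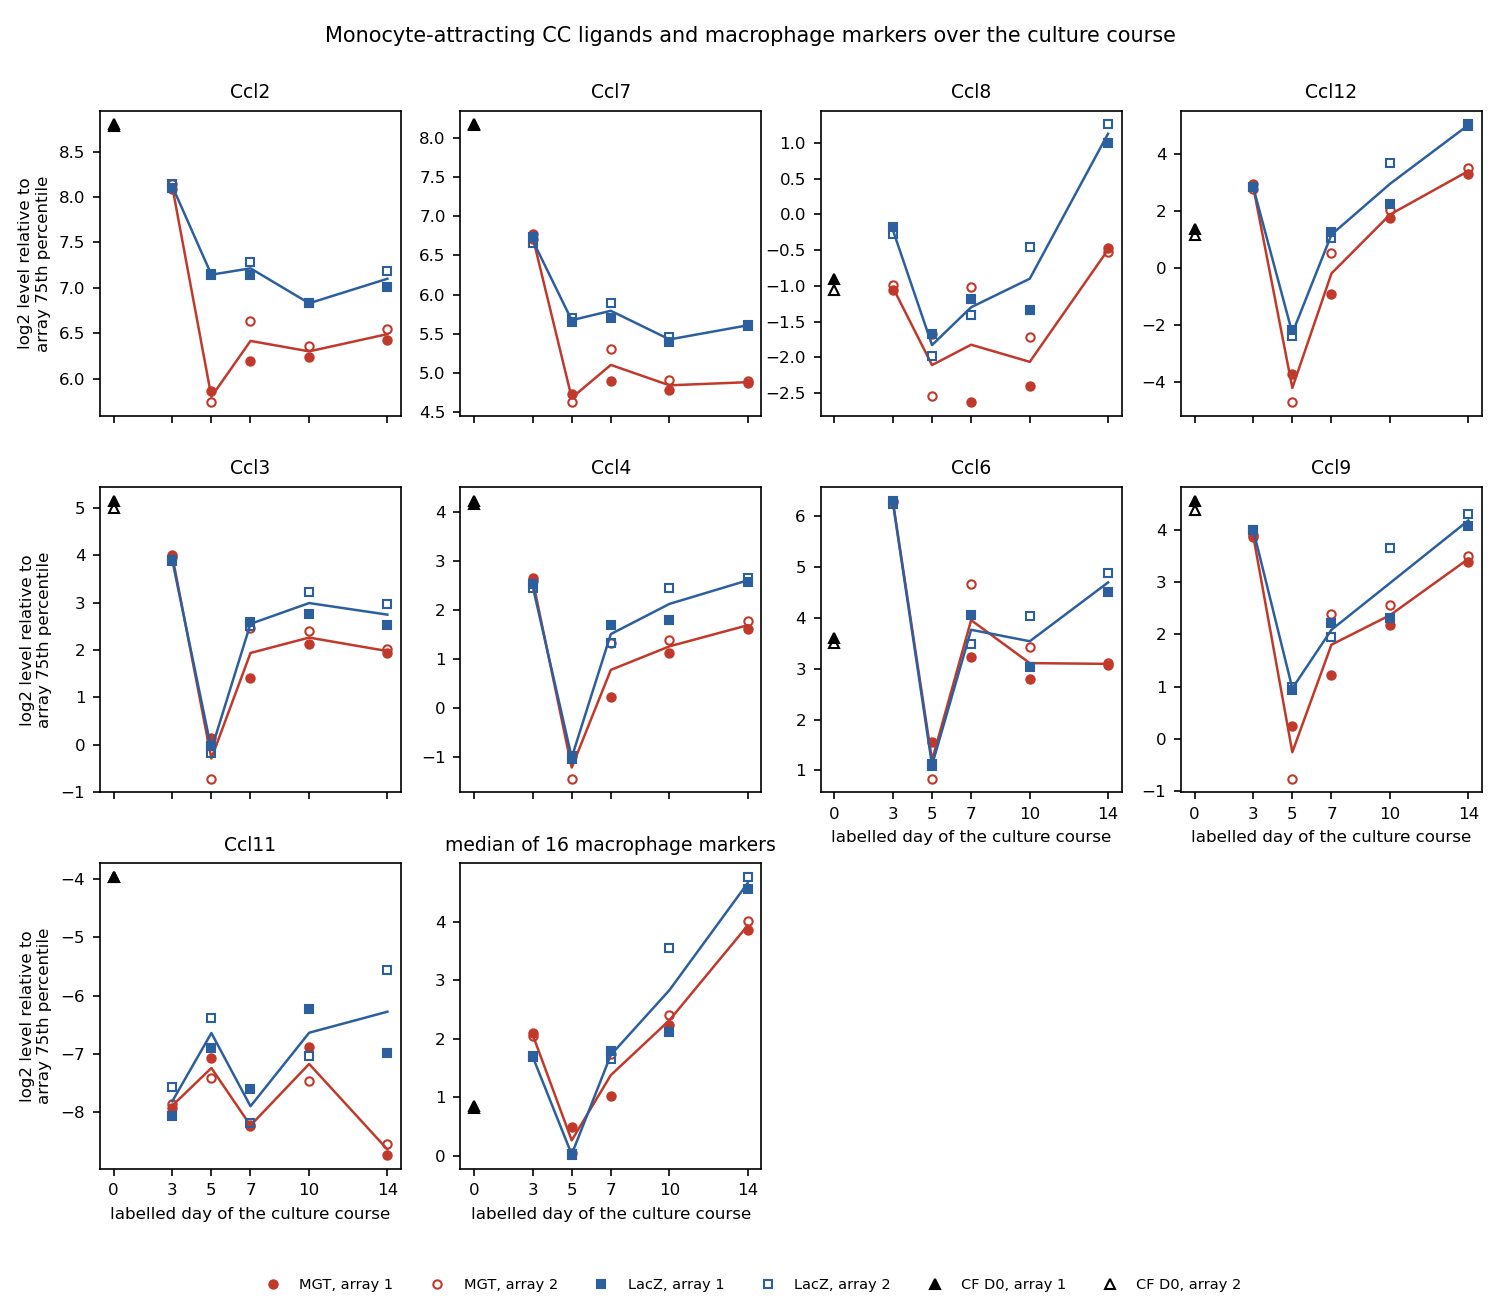
Levels of 9 monocyte-attracting CC ligands and the median level of 16 macrophage markers (log2, relative to the array's 75th percentile) by labelled day, with 1 point an array: MGT (red circles), LacZ (blue squares) and CF D0 (black triangles). Ccl12, Ccl3, Ccl4, Ccl6 and Ccl9 dip on day 5 in both arms, as the macrophage median does.

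Several monocyte ligands read low on day 5 in both arms, a difference between days that was not tested. Ccl6, a myeloid ligand, read 6.27 and 6.30 with MGT on day 3, 1.56 and 0.84 on day 5 and 3.24 and 4.67 on day 7, and in LacZ cells 6.29 and 6.23, 1.12 and 1.09, and 4.05 and 3.48 on the same days. Ccl3, which draws monocytes, read 4.01 and 3.96 with MGT on day 3 and 0.13 and -0.72 on day 5, against 3.91 and 3.88 and then -0.03 and -0.18 with LacZ. In both arms the day 5 arrays lay below those of days 3 and 7 for these ligands. The macrophage median read 2.10 and 2.04, 0.48 and 0.04, and 1.01 and 1.74 with MGT on days 3, 5 and 7, and 1.69 and 1.70, 0.03 and 0.01, and 1.79 and 1.65 with LacZ. It then reached 3.85 and 4.02 with MGT and 4.56 and 4.76 with LacZ on day 14. Of the 16 markers 14 or 15 were well above background on each array of the course after day 0, with Cd163 at background in all these groups. The part of macrophage content in these ligand levels was not tested.

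Many inflammatory ligands were higher in the day 0 fibroblasts than in freshly isolated neoCF. Cxcl5 read 7.85 and 7.87 in CF D0 and -2.25 and -1.48 in neoCF (9.73 ± 0.47, 849-fold, adjusted p = 2.8e-12). Cxcl3 read 4.99 and 4.88 in CF D0 and -3.25 and -3.28 in neoCF (8.2 ± 0.40, 295-fold). Ccl5 read 5.65 and 5.43 in CF D0 and -0.16 and -0.21 in neoCF (5.73 ± 0.33, 53-fold, adjusted p = 2.8e-11). Neither group overlapped with the other in these ligands. Ccl7 (5.29 ± 0.95), Ccl2 (3.97 ± 1.10) and Ccl8 (3.58 ± 0.55), all monocyte ligands, were higher as well, as were Cxcl10 (2.76 ± 0.31) and Cxcl1 (2.26 ± 0.36). Ccl21a, a lymphatic vessel ligand of Ccr7, was lower, with -0.92 and -1.18 in CF D0 and 5.41 and 3.77 in neoCF (-5.64 ± 0.40, 50.0-fold, adjusted p = 5.3e-10). So was Ccl24, an eosinophil ligand, with -5.0 and -4.5 in CF D0, where 1 array was well above background, and 0.03 and -0.57 in neoCF (-4.48 ± 0.55). Cxcl13 was at least 4.26-fold lower in CF D0 (means -7.27 and -3.23, adjusted p = 0.0079), but its neoCF arrays read -1.83 and -4.63 and the call was lost without neoCF replicate 1 (adjusted p = 0.14). Of the 34, 13 were higher and 6 lower, against 17.5% and 17.4% of all genes.

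Other lists moved beside that comparison, which lies within 1 slide. In CF D0, 23 of 25 interferon response genes and 12 of 25 NF-κB and cytokine genes were higher and 0 of either lower (1 and 2 at an unadjusted p under 0.05). Macrophage markers were higher for 2 and lower for 7 of 16, and 7 of 11 endothelial and lymphatic markers were lower and 1 higher. Among all genes 17.5% were called higher and 17.4% lower. The endothelial and lymphatic median was -0.92 and -0.91 in CF D0 and 2.30 and 2.35 in neoCF, and Prox1 was at background in CF D0. Their part in the ligand values was not tested.

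Freshly isolated cardiomyocytes had less RNA of most ligands than freshly isolated fibroblasts. In neoCM 24 ligands were lower and 1 higher than in neoCF, against 16.2% lower and 15.4% higher among all genes. The 24 include Cxcl12, whose probes differ in direction. Means were 2.99 in neoCM and 4.85 in neoCF on the probe used, and 1.51 and 0.98 on the other. The largest falls were in Ccl21a, with -2.29 and -2.47 in neoCM and 5.41 and 3.77 in neoCF (-6.97 ± 0.40, 125-fold, adjusted p = 6.6e-11), and in Cxcl2, with -3.56 and -3.67 against 2.49 and 2.28 (-6.0 ± 0.35, 64-fold). Cxcl10 fell by 5.13 ± 0.31, Cxcl1 by 5.04 ± 0.36 and Ccl3 by 5.03 ± 0.58, and Cxcl5 was at least 14.8-fold lower (means -7.49 and -1.87, adjusted p = 9.3e-09). All 10 monocyte ligands and all 4 neutrophil ligands tested were lower. Ccl27a, a skin ligand, was the ligand higher in neoCM (1.30 ± 0.24, adjusted p = 0.00013). The macrophage median was -1.73 and -1.58 in neoCM against 2.69 and 2.29 in neoCF, with 13 of 16 markers called lower. The endothelial and lymphatic median was -0.57 and -0.68 in neoCM against 2.30 and 2.35 in neoCF, with 9 of 11 markers lower and 1 higher, and 5 of 10 granulocyte markers were lower and 0 higher (0 also at an unadjusted p under 0.05). The part of these cell types was not tested. The median log2 difference was -2.29 for the ligands and -0.05 for all genes, and neoCM and neoCF differ in scan day.

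Stem cell derivatives also had less ligand RNA than neoCF. The mean of iPSC1-CM D13 and iPSC2-CM D9 (4 arrays) against neoCF had 23 ligands lower and 2 higher, beside 19% and 17.6% of all genes, and the median log2 difference was -3.96 against 0.18. Ccl4 was at least 524-fold lower (means -6.85 and 3.37, adjusted p = 8.2e-17) and Ccl12 at least 100-fold lower (-7.37 and 0.99). Ccl3 read -5.26, -5.88, -7.39 and -7.48 in the stem cell derivatives, of which the first 2, from line 1, were well above background, against 3.49 and 3.28 in neoCF (-9.89 ± 0.50). Cxcl1 read -3.81, -4.29, -4.84 and -4.31 against 4.79 and 5.63 (-9.52 ± 0.31, 736-fold, adjusted p = 6.6e-15). Ccl17 was higher in the derivatives, at -0.15, -0.17, -2.33 and -1.79 against -5.13 and -4.82 (3.87 ± 0.32, adjusted p = 3.6e-09), as was Ccl27a (1.29 ± 0.20). No array of the derivatives overlapped with neoCF in the ligands given by array. With CF D0 in place of neoCF the Ccl17 difference was 0.75 and under the 2-fold limit. The macrophage median lay between -5.29 and -4.54 in the 4 arrays, 14 of 16 markers were lower than in neoCF, and C1qa and Lyz2 were among 7 at background in iPSC2-CM D9. The derivatives and neoCF lay on different slides, so slide and cell type cannot be told apart.

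Both lines differed in a few ligands. Cxcl12, which draws stem and progenitor cells through Cxcr4, read 6.96 and 7.00 in iPSC1-CM D13 and 3.81 and 3.28 in iPSC2-CM D9 (3.43 ± 0.75, 10.8-fold, adjusted p = 0.0012). Its second probe gave 5.13 and 5.20 against 0.87 and -0.03. Cx3cl1 read 2.67 and 2.57 in iPSC1-CM D13 and -0.88 and -1.11 in iPSC2-CM D9 (3.61 ± 0.36, adjusted p = 1.4e-07). Cxcl10 went the other way, with -4.93 and -5.54 against -0.44 and -1.07 (-4.48 ± 0.31, 22.3-fold, adjusted p = 1e-09). Ccl28, an epithelial ligand, was at least 4.04-fold higher in line 1 (means -3.28 and -7.08, adjusted p = 4.3e-05). The groups did not overlap in these 4 ligands. In all 6 ligands were higher and 3 lower, beside 12.2% and 9.1% of all genes, with Ccl4 and Ccl24 called from background signals on both sides, and normexp with quantile scaling called 4 higher and 1 lower. Line and day differ together here and cannot be told apart. All 10 fibroblast markers were higher in iPSC1-CM D13, with a median of 3.98 and 4.04 against -1.99 and -2.45, and their part was not tested.

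Within line 2, D29 against D9 had 4 ligands higher and 1 lower, beside 14.8% and 9.39% of all genes, and quantile scaling gave 4 and 2. Cx3cl1 read 3.42 and 1.47 on D29 and -0.88 and -1.11 on D9 (3.44 ± 0.36, adjusted p = 2.9e-07), and Cxcl1 read -1.26 and -2.73 against -4.84 and -4.31 (2.58 ± 0.36, adjusted p = 1.2e-05). Ccl6 was at least 15.6-fold higher (means -1.33 and -7.10, adjusted p = 0.0022), mostly from D29 replicate 1. Its log2 difference was 9.77 without D29 replicate 2 and 1.77 without D29 replicate 1. Ccl9, a myeloid ligand, differed by 2.38 ± 0.80 (adjusted p = 0.022) and by 0.20 without D29 replicate 1. With array weights 1 ligand of the 5 was called, and without D29 replicate 2 the count was 16. Endoderm and liver markers had a median of 1.41 and -6.47 on the D29 arrays, and their part was not tested.

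Induced cardiomyocytes of 4 weeks had less of the neutrophil ligands than neoCF and more of Cxcl13, Ccl8, Ccl17 and Cx3cl1. Cxcl13 read 4.91 and 4.84 in iCM and -1.83 and -4.63 in neoCF (8.10 ± 1.21, 274-fold, adjusted p = 1.2e-05), and the log2 difference lay between 6.7 and 9.5 when 1 array was left out. Ccl8 read 3.15 and 3.03 in iCM and -4.28 and -4.85 in neoCF (7.66 ± 0.55, 202-fold, adjusted p = 9.3e-10). Ccl17 read 0.18 and 0.15 in iCM and -5.13 and -4.82 in neoCF (5.14 ± 0.37), and Cx3cl1 3.64 and 3.59 against -0.21 and 0.38 (3.53 ± 0.36). All iCM arrays lay above all neoCF arrays for these 4 ligands. Ccl6 was called too (3.60 ± 1.36, adjusted p = 0.03), a call lost without any 1 of the 4 arrays (adjusted p 0.068 to 0.12) and against CF D0 (adjusted p = 0.11). Without D29, whose arrays set most of that SE, the Ccl6 difference was 3.60 ± 0.43 (adjusted p = 6.1e-07).

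Lower in iCM were Ccl21a, with -6.25 and -5.73, of which 1 array was well above background, against 5.41 and 3.77 in neoCF (-10.58 ± 0.40, adjusted p = 1.1e-13), and Cxcl2, with -5.74 and -6.43, again 1 array, against 2.49 and 2.28 (-8.47 ± 0.35). Ccl24 differed by -5.76 ± 0.55 and Cxcl1 by -5.53 ± 0.36, and Cxcl3 was at least 7.83-fold lower (means -8.34 and -3.27, adjusted p = 3.3e-09). Cxcl5 was -3.39 and -3.27 in iCM against -2.25 and -1.48 in neoCF (-1.46 ± 0.47, adjusted p = 0.012). With these, 6 ligands were higher and 12 lower, beside 17.8% and 19.5% of all genes. Cxcl12 was not called, and its probes differ in direction. Means were 3.87 in iCM and 4.85 in neoCF on the probe used, and 4.77 and 0.98 on the other. With CF D0 in place of neoCF, Ccl24 differed by -1.27 (adjusted p = 0.052). The endothelial and lymphatic median was -3.24 and -2.99 in iCM against 2.30 and 2.35 in neoCF. At an unadjusted p under 0.05, 7 of these 11 markers were lower in iCM and 1 higher. The lymphatic markers differed in direction. Prox1 was at background in iCM and -2.89 and -3.66 in neoCF, while Lyve1 read 2.48 and 2.45 in iCM against 1.89 and 1.01 in neoCF. Of 10 granulocyte markers, 8 were lower in iCM and 0 higher (0 also at an unadjusted p under 0.05). Their part was not tested. The macrophage median was 2.65 and 2.72 in iCM against 2.69 and 2.29 in neoCF, with 3 of 16 markers higher and 4 lower. Slide and scan day differ between iCM and neoCF, and likewise between iCM and the stem cell derivatives, and cannot be told apart from these differences.

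Against neoCM, iCM had 17 ligands higher and 3 lower, beside 18.9% and 20.1% of all genes. All 10 monocyte ligands were higher. Ccl8 was at least 462-fold higher in iCM (means 3.09 and -6.35, adjusted p = 4e-11), Cxcl13 differed by 8.52 ± 1.21, Ccl6 by 7.70 ± 1.36 and Ccl7 by 6.19 ± 0.95. Ccl12 read 1.70 and 1.60 in iCM and -3.80 and -3.97 in neoCM (5.53 ± 0.46, 46.4-fold, adjusted p = 5.4e-09). These groups do not overlap. Lower in iCM were Ccl21a (-3.61 ± 0.40), Cxcl2 (-2.47 ± 0.35) and Ccl24 (-1.58 ± 0.55, adjusted p = 0.019), and the Ccl24 call was lost without iCM replicate 2 (adjusted p = 0.33) or neoCM replicate 2 (adjusted p = 0.092). Macrophage markers were higher for 14 of 16 in iCM and lower for 1, and their part was not tested. The iCM were cells of 4 weeks, while neoCM and neoCF were fresh from pups. Culture and cell type thus cannot be told apart in iCM against neoCM or neoCF.

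Against the stem cell derivatives, iCM had 18 ligands higher and 3 lower, beside 21.7% and 24.4% of all genes, and the median log2 difference was 1.96 for ligands and -0.15 for all genes. Cxcl13 was at least 1480-fold higher in iCM (means 4.87 and -7.91, adjusted p = 2e-09), Ccl8 at least 432-fold and Ccl12 at least 159-fold. Ccl6 read 6.12 and 6.06 in iCM against -5.90, -6.98, -6.72 and -7.49 in the derivatives, of which 1 array was well above background (12.86 ± 1.18, adjusted p = 1.1e-08). Ccl2 read 5.32 and 5.27 against -0.18, -0.42, -1.31 and -1.70 (6.20 ± 0.95, adjusted p = 1.1e-05). Neither Ccl6 nor Ccl2 overlapped between the groups. The 3 lower ligands were Cxcl9 (-2.29 ± 0.25), Ccl21a (-1.96 ± 0.34) and Xcl1, the last from background signals, and 7 were lower at an unadjusted p under 0.05. Normexp with quantile scaling called 18 higher and 0 lower, with -0.84 for Cxcl9, -0.51 for Ccl21a and -0.30 for Xcl1. The second Cxcl9 probe was at background on all these arrays. Macrophage markers were higher for 14 of 16 and interferon response genes for 25 of 25 in iCM, and their part was not tested.

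**Figure D4:**
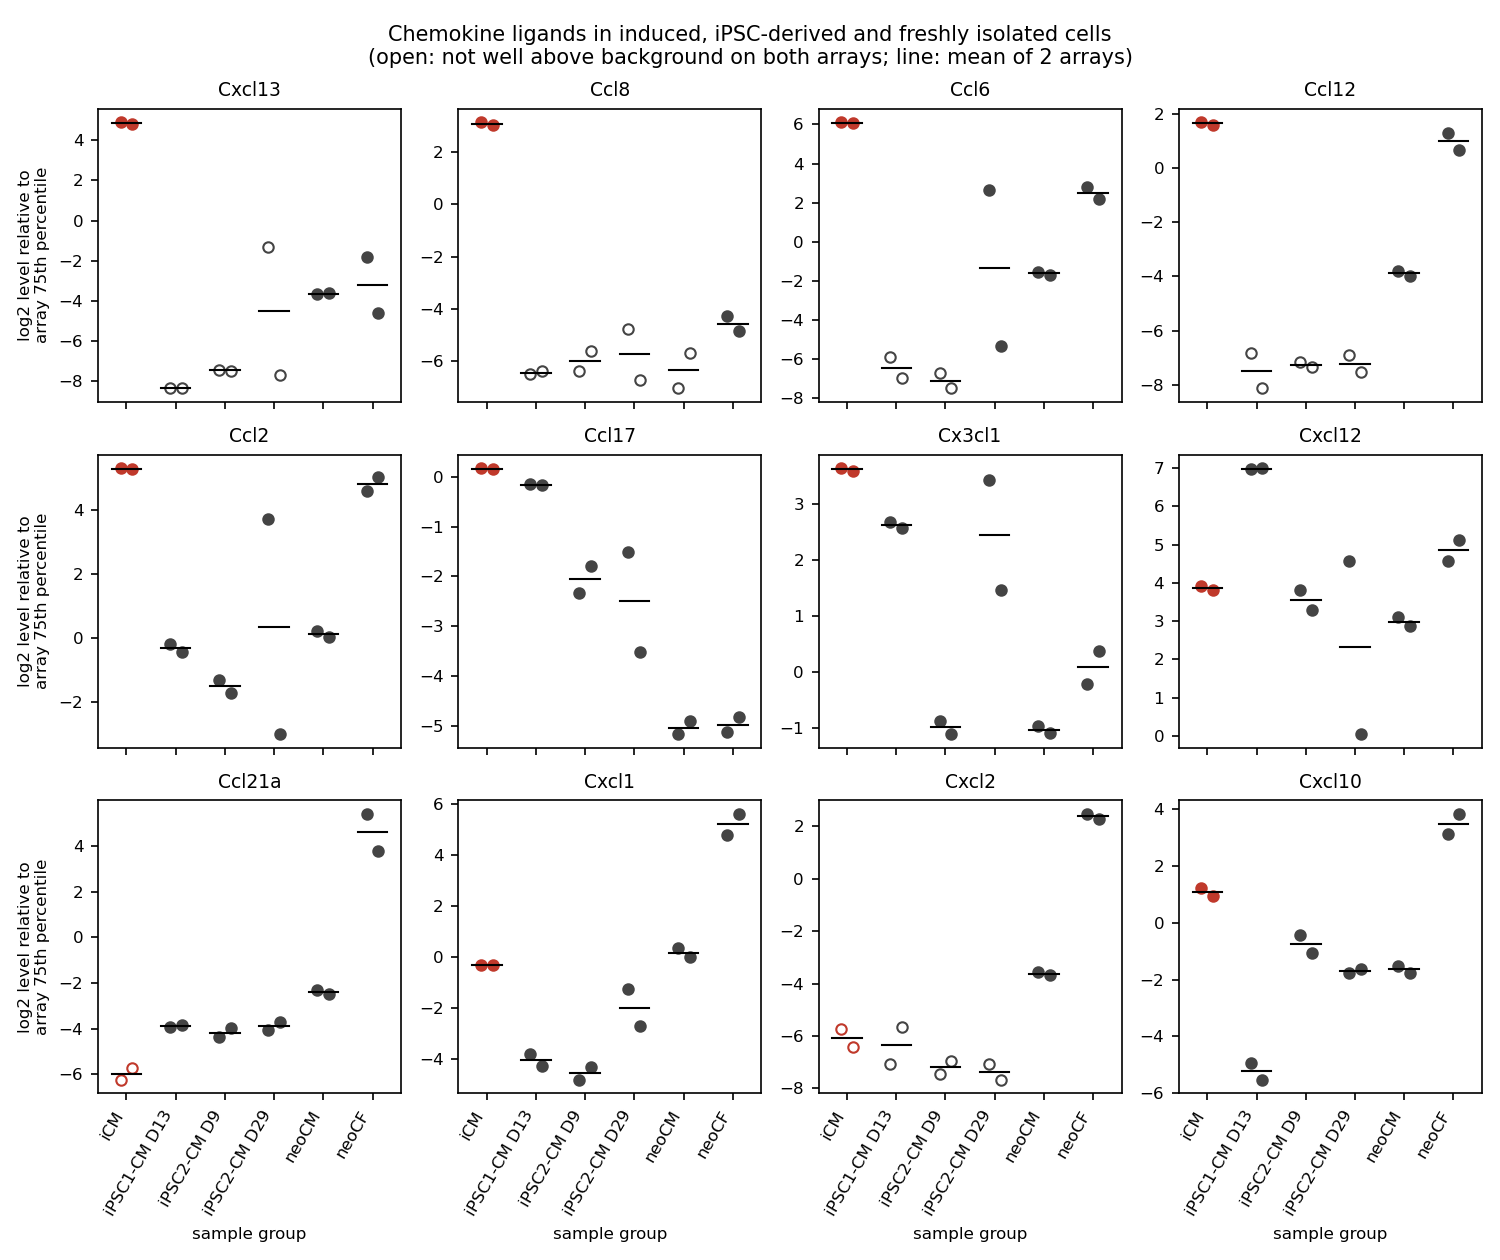
Levels of 12 ligands (log2, relative to the array's 75th percentile) in iCM, iPSC1-CM D13, iPSC2-CM D9 and D29, neoCM and neoCF, with 1 point an array and open points where not both arrays of a group were well above background. Cxcl13 and Ccl8 are highest in iCM, Cxcl12 in iPSC1-CM D13, and Ccl21a, Cxcl1, Cxcl2 and Cxcl10 in neoCF.

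Set against LacZ cells of day 14, iCM had 5 ligands higher and 14 lower, beside 10.3% and 17.8% of all genes. Of the 14, Ccl26 was at background in both groups, and Ccl21a, Cxcl3 and Cxcl9 were well above background on 1 LacZ array. Cxcl13 read 4.91 and 4.84 in iCM and -4.42 and -5.66 in LacZ D14, where 1 array was well above background (9.91 ± 1.21, adjusted p = 2e-06), and Ccl8 read 3.15 and 3.03 against 1.00 and 1.26 (1.96 ± 0.55, adjusted p = 0.0069). Ccl11, an eosinophil ligand, was at least 1.7-fold higher in iCM (means -3.71 and -6.28, adjusted p = 6.9e-06). Lower were Cxcl14, with -3.54 and -2.89 against 2.06 and 2.11 (-5.30 ± 1.10, adjusted p = 0.0006), Ccl12 (-3.35 ± 0.46), Ccl17 (-3.35 ± 0.37) and Cxcl2 (-2.93 ± 0.35). No array of iCM overlapped with LacZ D14 in the ligands given by array. Culture age, slide and scan day also differ between these groups, as may the medium, and cannot be told apart from the virus. Macrophage markers were lower for 8 of 16 in iCM and higher for 1.

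Of 23 chemokine receptors 20 were tested, and in MGT cells against LacZ 2, 3, 2, 3 and 2 were higher on days 3, 5, 7, 10 and 14, against 3.19%, 4.83%, 5.25%, 5.3% and 5.92% of all genes. On the same days 0, 0, 1, 1 and 1 were lower (0 and 3 at an unadjusted p under 0.05 on days 3 and 5), against 1.86%, 3.47%, 3.51%, 3.31% and 7.07% of all genes. Ackr3, a scavenging receptor that removes Cxcl12, read 2.49 and 2.56 with MGT and -0.56 and -0.43 with LacZ on day 3 (3.02 ± 0.45, adjusted p = 0.00011), while its ligand Cxcl12 read 3.72 and 3.68 with MGT and 4.22 and 4.16 with LacZ on 1 probe, and 3.79 and 3.72 with MGT and 3.55 and 3.61 with LacZ on the other, so the probes differ in direction. By day 14 Ackr3 overlapped, at 1.65 and 1.80 with MGT and 1.80 and 1.28 with LacZ. Ccr6, the receptor of Ccl20, was at least 9.29-fold higher with MGT on day 3 (means -2.43 and -5.65, adjusted p = 0.00026), and Ccl20 itself was at background on all arrays. Cxcr6, the receptor of Cxcl16, was higher on days 5, 10 and 14, with -1.15 and -1.27 with MGT and -3.17 and -3.00 with LacZ on day 14 (1.87 ± 0.28, adjusted p = 5e-05).

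Cx3cr1, the receptor of Cx3cl1 on macrophages, rose with culture time. It read 3.08 and 4.29 in LacZ cells on day 10, against -3.19 and -3.13 on day 3 (6.85 ± 0.37, adjusted p = 9e-10), and 5.16 and 5.34 in MGT cells on day 14, against -1.98 and -2.28 on day 3 (7.39 ± 0.37). Its ligand Cx3cl1 rose in both of these comparisons, as given above. In CF D0 against neoCF, Cx3cr1 fell by 8.08 ± 0.37 and Ackr4, which scavenges Ccl19 and Ccl21, was at least 73.6-fold lower (means -6.69 and 0.88, adjusted p = 2.6e-05). In iCM, Ccr2, the receptor of Ccl2, Ccl7 and Ccl12, was at background on both arrays (-8.12 and -7.92), against -0.30 and -0.85 in neoCF, and so was Cxcr2, the receptor of the neutrophil ligands.

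**Figure D5:**
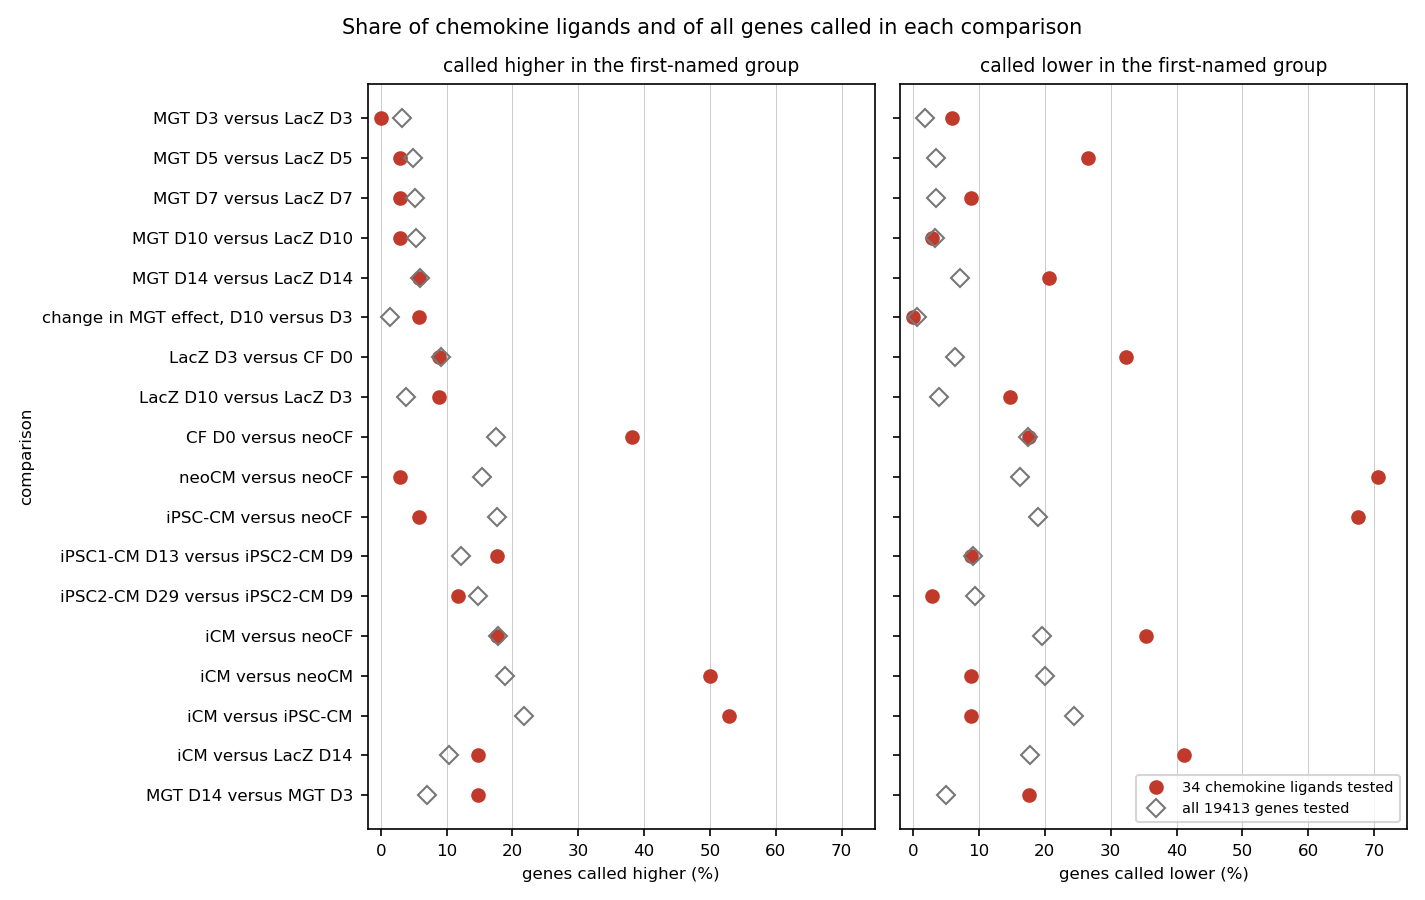
Percent of the 34 tested ligands and of all genes tested that were called higher or lower in each of the 18 comparisons. Ligands were called lower far more often than genes at large in neoCM (70.6% against 16.2%) and stem cell derivatives (67.6% against 19%) relative to neoCF, and higher more often in iCM relative to neoCM (50% against 18.9%).

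The comparisons are not independent of each other. Those against neoCF share its 2 arrays, those of iCM share the iCM arrays, and the interaction term and the culture comparisons reuse the MGT and LacZ arrays of days 3, 10 and 14, so their counts cannot be added up or set against each other as separate evidence.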

How the data were processed

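Per the file headers, the deposited scanner files hold spot intensity from Agilent Feature Extraction 10.7.3.1, background-adjusted within the array. Their deposited log2 table, for which the submitters' processing notes name limma without a version, served as an alternative, and the array medians in it ran between 7.493 and 7.523. Array brightness, as the 75th percentile of intensity, spanned 616.87 to 3151.32. Outlier spots were dropped, spots of a probe averaged, log2 taken and each array's 75th percentile subtracted. Probes that passed the background test in the 2 arrays of any group were kept (43382), and the brightest probe stood for its gene (19413). Genes were named through RefSeq. All 34 arrays entered 1 limma fit (3.58.1, R 4.3.3, package data.table at 1.17.8, jsonlite 2.0.0) with 17 residual and 1.99 prior degrees of freedom. Calls needed a Benjamini-Hochberg adjusted p under 0.05 and a 2-fold difference. The fit was tested on simulated data.

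The members and lists were chosen with earlier results of these data known. Every ligand by the name rule is accounted for. In each comparison called ligands with large differences each way are named, with those that complete a role group. Of other lists up to 3 called genes each way are named. Some called ligands with larger differences are left out. Among them are Ccl11 in LacZ D3 against CF D0 (-3.84), Ccl6 in the stem cell derivatives against neoCF (-9.26) and Ccl9 in iCM against the derivatives (8.57). Where no array of the lower side passed that test, an at-least fold was formed from the higher of each array's lowest signal well above background and the gene's own. The 34 arrays lay on 6 slides and 3 scan days. Replicate numbers did not pair samples (correlations of same-numbered deviations -0.06 to 0.13). Sequences were read with Python 3.11.15 and pandas 2.3.3, figures drawn with matplotlib 3.10.9 and numpy 2.4.6. Where called ligands are said not to overlap between groups, this follows largely from how they were picked and is no separate support. The precision is limited by 2 arrays a group.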

Additional observations from a re-analysis of the deposited data

Results flagged for a closer look

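The effect of MGT on 2 ligands differed between days 10 and 3 by a limma interaction term. For Cxcl10 the change in log2 difference was 2.11 ± 0.44 (adjusted p = 0.0094), with day 10 values of 3.92 and 3.18 with MGT and 3.48 and 3.20 with LacZ, and day 3 values of 2.49 and 2.26 with MGT and 4.25 and 4.32 with LacZ. For Ccl5 it was 1.86 ± 0.46 (adjusted p = 0.035), with 0.43 and 0.58 with MGT and 0.49 and 0.46 with LacZ on day 10, and 0.93 and 0.88 with MGT and 2.70 and 2.76 with LacZ on day 3. Both MGT arrays lay below both LacZ arrays on day 3 for both ligands and overlapped with them on day 10. With 1 array left out, 0 or 1 ligand was called: the Ccl5 call was lost without any 1 of the 8 arrays (adjusted p 0.075 to 0.13), and that of Cxcl10 without MGT D3 replicate 2 (adjusted p = 0.056) or MGT D10 replicate 1 (adjusted p = 0.075). The cause was not tested.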

How the results depend on the processing

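Of 135 named ligand results, 127 kept direction and call under quantile scaling, 116 under normexp with quantile scaling, 121 with the authors' log2 values, 133 with no filter on dim probes, 133 with the mean of kept probes, 121 with array weights, 135 with slide as a random block, and 134 with the replicate block, under which Ccl26 on day 14 (-3.1, adjusted p = 0.055) was lost. Slide as a fixed block could be fitted for 52 and kept 51. With 1 array left out, 500 of 582 kept. The background signal of Ccl11 in LacZ D10 against LacZ D3 reversed, at -0.08 (normexp with quantile scaling) and -0.16 (authors' log2 values), from 1.18. Counts of ligands called moved by over 1.5 times for MGT D3 (array weights 5, D29 left out 4, against 2), MGT D10 (D29 left out 4, against 2), MGT D14 (normexp with quantile scaling 5, array weights 5, against 9), the interaction (array weights 4, D29 left out 4, against 2), LacZ D10 against D3 (array weights 13, D29 left out 14, against 8), iPSC1-CM D13 against iPSC2-CM D9 (normexp with quantile scaling 5, against 9) and iPSC2-CM D29 against D9 (array weights 1, against 5). With 1 array left out, a fit in which a lone array is assumed to vary like the other groups, the counts ran from 6 to 7 for MGT D5, 1 to 4 for MGT D10, 3 to 9 for MGT D14, 0 to 1 for the interaction and 4 to 16 for iPSC2-CM D29 against D9. The cause was not tested. Quantile scaling moved the median of all genes by up to 0.19. Some dim ligands differed less under normexp with quantile scaling, such as Ccl24 in iCM against neoCF (-3.47, against -5.76), and differences near background cannot be measured at this signal.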
